A study of Rattus norvegicus with 12 samples.

Results

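Transcripts that are normally made in heart muscle and in brain were counted in cultured kidney fibroblasts, and their level differed several-fold between libraries that should be alike. A set of 39 such genes had been picked from these same libraries because they moved together, 22 of heart muscle and 17 of brain. Of these, 37 had a row in the deposited normalized table of 14275 genes and are described here, 22 of heart and 15 of brain. The myelin gene Mog and the astrocyte gene Gfap had no row in it, a table with no gene counted under 100 times in all. Their choice rests on the levels in all 12 libraries, so the levels, fold changes and counts of calls of the 37 genes are descriptions. Calls from tests over all genes are given for them, but are not read as evidence about them.

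The cells were NRK-49F, a fibroblast line from normal rat kidney, and poly(A) RNA was sequenced. Cells had received a plasmid for human HDAC1 with a Flag tag, a histone deacetylase, or the empty vector pcDNA3.1, before 24 hours with 2 ng/ml TGFB1 or with vehicle, which is low-serum medium alone. The 4 groups of 3 libraries are HDAC1 with TGFB1, empty vector with TGFB1, HDAC1 with vehicle, and empty vector with vehicle, as the sample titles give them. The treatment field names vehicle for the vehicle libraries but counts up through numbered names for the TGFB1 libraries, and the series text describes all cells as treated, so the groups rest on the titles. The labels do not say whether replicates were separate cultures, so tests measure the spread between these libraries, which may be technical.

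Library totals ran from 18397093 to 36652084 counts. Levels are CPM, which are counts scaled to a common library size, after TMM scaling in edgeR. The rat gene Hdac1 averaged 464 ± 43.5 CPM with HDAC1 and TGFB1, against 267 ± 21.1 CPM with empty vector and TGFB1. In vehicle it averaged 421 ± 43.3 CPM with HDAC1, against 210 ± 4.13 CPM with empty vector (SD, n = 3 each), so each HDAC1 library lay above every empty vector library. Whether reads of the plasmid's human HDAC1 are part of these counts was not tested. The 11 fibroblast markers with a row summed to between 14630 and 28820 CPM in the 12 libraries. Counts of different genes are not divided by transcript length here, so levels are compared between libraries and not between genes.

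Heart muscle contracts when myosin of the thick filament pulls on actin of the thin filament, after calcium released through the ryanodine receptor has bound troponin. Cardiac myosin chains, cardiac troponins and atrial natriuretic peptide mark heart muscle cells. Synaptic vesicle proteins and neurofilaments mark neurons, myelin proteins mark oligodendrocytes, and the glutamate transporter Slc1a2 marks astrocytes. A kidney fibroblast is not known to express these genes as a programme.

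The start regions of 4 of these genes are shown because muscle promoters often carry an E-box: the 250 bases before the start of Myh6 (the alpha cardiac myosin chain), Nppa (atrial natriuretic peptide), Mb (myoglobin) and Nrgn (neurogranin, of neuronal spines). They are from RefSeq on the build GRCr8, 5′ to 3′ on the gene's own strand, and capitals mark each match on either strand to TATAAA, to the E-box CAGCTG, to CATTCC (the core bound by TEAD factors) or to AGATAA.
Myh6 (chr15:32411698-32411947, minus strand): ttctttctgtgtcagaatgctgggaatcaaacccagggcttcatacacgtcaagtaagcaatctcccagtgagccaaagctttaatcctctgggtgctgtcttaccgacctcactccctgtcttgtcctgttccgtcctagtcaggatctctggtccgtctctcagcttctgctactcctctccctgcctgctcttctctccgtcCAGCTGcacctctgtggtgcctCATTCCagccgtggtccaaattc
Nppa (chr5:163711934-163712183, plus strand): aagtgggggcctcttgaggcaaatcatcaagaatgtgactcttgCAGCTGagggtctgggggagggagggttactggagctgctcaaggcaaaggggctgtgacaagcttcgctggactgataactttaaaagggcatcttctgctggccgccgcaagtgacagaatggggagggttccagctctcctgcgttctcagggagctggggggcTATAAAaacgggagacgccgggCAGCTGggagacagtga
Mb (chr7:110647743-110647992, minus strand): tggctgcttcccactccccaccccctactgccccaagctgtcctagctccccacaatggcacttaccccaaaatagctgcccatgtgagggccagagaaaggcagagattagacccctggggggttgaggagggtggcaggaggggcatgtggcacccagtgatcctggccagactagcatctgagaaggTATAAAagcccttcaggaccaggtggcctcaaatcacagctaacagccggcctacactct
Nrgn (chr8:45452418-45452667, minus strand): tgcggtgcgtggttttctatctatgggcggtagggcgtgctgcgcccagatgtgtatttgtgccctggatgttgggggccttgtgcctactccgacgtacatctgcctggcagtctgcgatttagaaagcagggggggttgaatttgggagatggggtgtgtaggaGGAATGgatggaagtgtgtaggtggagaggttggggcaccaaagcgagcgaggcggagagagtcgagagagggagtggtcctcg
Of the 39 genes, 31 had such a region, 19 of heart and 12 of brain. CAGCTG, which is its own reverse complement, occurred in 8 of the 19 heart regions and in 2 of the 12 brain regions, against 11.9% of 27457 regions of the same length. The 8 were Ckm, Ckmt2, Des, Mybpc3, Myh6, Myh7, Nppa and Tnnt2. TATAAA occurred in 2 heart regions and 0 brain regions (13.1% of all), CATTCC in 3 and 3 (11.8% of all) and AGATAA in 2 and 0 (2759 of all 27457). A match describes the sequence only.

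The summed level of the 22 heart genes stood apart in 4 libraries. In HDAC1 with TGFB1 it was 165.7, 178.9 and 159.5 CPM, against 495.4, 470.2 and 597.1 CPM in empty vector with TGFB1. In HDAC1 with vehicle it was 258.5, 500.7 and 460.9 CPM, against 78.37, 418.0 and 443.2 CPM in empty vector with vehicle. The 3 libraries of HDAC1 with TGFB1 and replicate 1 of empty vector with vehicle were the 4 lowest of the 12. Replicate 1 of HDAC1 with vehicle lay between them and the rest, and the other 7 held 418.0 CPM or more. These sums rest on 1774 to 12734 counts a library, or 0.0078% (95% exact Clopper-Pearson interval 0.00744% to 0.00817%) of the counts in the lowest library and 0.0577% (0.0567% to 0.0588%) in the highest, where the intervals cover counting error only.

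The brain genes were low in the same libraries. Without Apoe, whose level in 1 library is described further on, the other 14 brain genes summed to 34.48, 35.8 and 33.65 CPM in HDAC1 with TGFB1, against 95.1, 97.63 and 95.06 CPM in empty vector with TGFB1. They summed to 59.59, 70.23 and 91.63 CPM in HDAC1 with vehicle, against 16.48, 82.8 and 82.75 CPM in empty vector with vehicle. The same 4 libraries were the lowest, and replicate 1 of HDAC1 with vehicle was again the next. In bulk RNA, fewer cells of a type and less RNA per cell cannot be told apart, and the source of these counts was not tested.

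**Figure D1:**
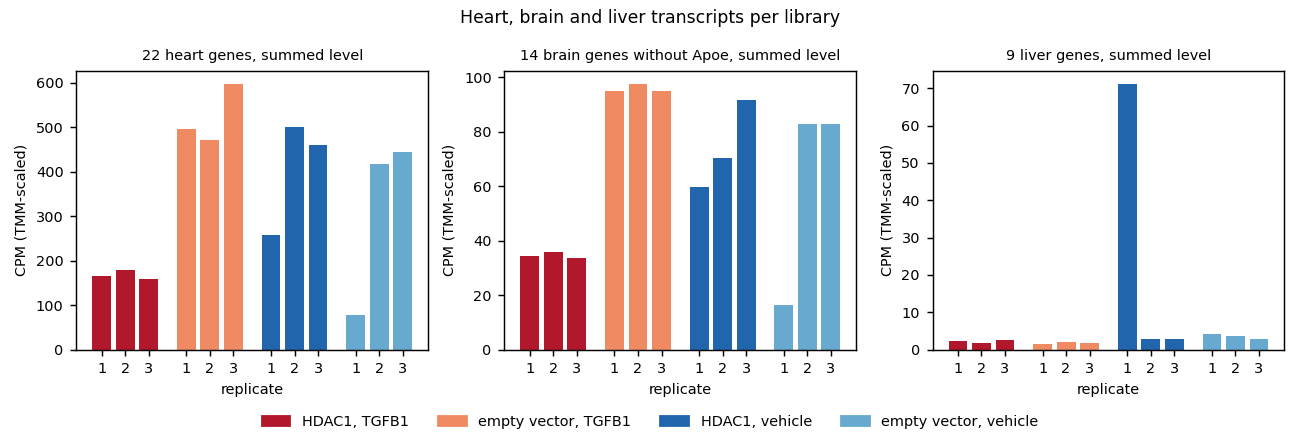
Summed level in CPM after TMM scaling of the 22 heart genes, of 14 brain genes without Apoe and of 9 liver genes with a row, in each of 12 libraries; each bar is 1 library, and colours give the groups. Heart and brain sums are lowest in replicate 1 of empty vector with vehicle (78.37 and 16.48 CPM), and the liver sum is high in replicate 1 of HDAC1 with vehicle (71.14 CPM).

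The proportion of the 2 tissues moved less than their levels did. The highest library held 7.619 times the lowest for the heart sum and 5.925 times for the brain sum. The ratio of the heart to the brain sum ran only from 4.34 to 7.13 over the 12 libraries. It was 4.85 ± 0.133 in HDAC1 with TGFB1 and 5.44 ± 0.758 in empty vector with TGFB1, and 5.499 ± 1.45 in HDAC1 with vehicle and 5.05 ± 0.300 in empty vector with vehicle (SD, n = 3 each), so the groups overlapped. In the library lowest in both, replicate 1 of empty vector with vehicle, it was 4.756. The highest ratio, 7.13, and the lowest, 4.34, were both in HDAC1 with vehicle, in its replicates 2 and 1.

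Within the empty vector vehicle group, the mean of replicates 2 and 3 was 5.494 times replicate 1 for heart and 5.023 times for brain. Between groups, HDAC1 with TGFB1 averaged 168 ± 9.89 CPM of heart transcripts, against 520.9 ± 67.2 CPM in empty vector with TGFB1, and 34.6 ± 1.09 CPM of brain transcripts, against 95.9 ± 1.47 CPM (SD, n = 3 each). Empty vector over HDAC1, these are ratios of 3.1 and 2.769. In HDAC1 with vehicle, replicates 2 and 3 averaged 1.86 times replicate 1 for heart and 1.358 times for brain. Of these gaps the largest lay between replicates that carry the same vector and the same treatment.

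Myosin and its partners in the thick filament show this gene by gene. Myh6 had 32.44, 38.49 and 30.55 CPM in HDAC1 with TGFB1, against 129.9, 109.2 and 146.3 CPM in empty vector with TGFB1. In vehicle it had 52.33, 101.2 and 106.8 CPM with HDAC1, against 17.05, 86.93 and 92.80 CPM with empty vector. The 2 TGFB1 groups did not overlap, and the 2 vehicle groups did. Replicate 1 of empty vector with vehicle lay below every other library. Myl2, the regulatory light chain of the ventricle, had 18.21, 21.36 and 21.37 CPM in HDAC1 with TGFB1 and 52.43, 59.11 and 62.32 CPM in empty vector with TGFB1. In vehicle it had 31.70, 54.46 and 51.90 CPM with HDAC1, against 7.775, 54.71 and 53.77 CPM with empty vector. Again empty vector vehicle replicate 1 was lowest and the libraries of HDAC1 with TGFB1 came next. Myh7 (the beta chain), Myl3 (the other ventricular light chain), Myl7 (the atrial light chain) and Mybpc3 (a myosin-binding protein) had 13.67%, 11.85%, 16.59% and 14.88% of the mean of replicates 2 and 3 in replicate 1 of that group. Myl7 had only 4 counts in that library.

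The thin filament and most genes of the Z disc moved alike. Tnnt2, cardiac troponin T, had 25.49, 25.99 and 22.34 CPM in HDAC1 with TGFB1, against 61.11, 63.47 and 78.69 CPM in empty vector with TGFB1. In vehicle it had 38.59, 70.74 and 60.23 CPM with HDAC1, against 10.03, 56.14 and 66.76 CPM with empty vector. The order of the libraries was that of the heart sum at its low end. The inhibitory and calcium-binding troponins Tnni3 and Tnnc1 and cardiac actin Actc1 stood at 15.57%, 22.72% and 16.65% of the other 2 replicates in empty vector vehicle replicate 1. The Z disc genes Actn2 (alpha-actinin), Csrp3 (a LIM protein) and Ldb3 stood at 15.23%, 18.60% and 26.79%. Des, grouped with them, stood at 43.51%, and its lowest library was replicate 1 of HDAC1 with TGFB1. Actc1 and the pair Myh6 and Myh7 have near-identical paralogs, and how reads that fit several genes were counted is not given in the sources used here, so their separate levels are uncertain.

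Of the giant spring protein titin (Ttn), 22.91% of the level in the other replicates was counted in empty vector vehicle replicate 1. Ryr2, the calcium release channel, had 2.207, 2.374 and 1.987 CPM in HDAC1 with TGFB1, against 9.673, 6.805 and 10.67 CPM in empty vector with TGFB1. In vehicle Ryr2 had 2.589, 8.022 and 9.078 CPM with HDAC1, against 1.414, 6.414 and 6.833 CPM with empty vector. Its replicate 1 of HDAC1 with vehicle stood at 30.28% of the other 2, the lowest such value of the 37 genes, close to the libraries of HDAC1 with TGFB1. Pln, which restrains the calcium pump, was counted only 107 times in all, and its values carry the largest counting error of the heart genes.

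Among the genes of energy supply, Mb had 6.566, 6.577 and 7.639 CPM in HDAC1 with TGFB1 and 23.64, 21.74 and 27.98 CPM in empty vector with TGFB1. In vehicle Mb had 11.91, 23.87 and 20.53 CPM with HDAC1, against 3.667, 19.51 and 20.25 CPM with empty vector. The TGFB1 groups did not overlap for Mb, and replicate 1 of empty vector with vehicle was the lowest library. The creatine kinases Ckm and Ckmt2 (of cytosol and mitochondria) stood at 18.83% and 18.02% in empty vector vehicle replicate 1. Fabp3 stood at 44.72% there, and its lowest library was replicate 3 of HDAC1 with TGFB1. Nppa, the hormone of the atria, had 2.373, 2.529 and 2.340 CPM in HDAC1 with TGFB1, against 3.616, 4.323 and 8.732 CPM in empty vector with TGFB1. In vehicle Nppa had 2.668, 5.898 and 5.104 CPM with HDAC1, against 1.060, 7.050 and 5.438 CPM with empty vector. Replicate 3 of empty vector with TGFB1 held the most, and the groups with TGFB1 did not overlap.

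The brain genes show the same 4 low libraries. Mbp, myelin basic protein, had 3.586, 3.930 and 3.179 CPM in HDAC1 with TGFB1, against 14.74, 12.41 and 11.91 CPM in empty vector with TGFB1. In vehicle Mbp had 6.815, 12.43 and 15.00 CPM with HDAC1, against 1.767, 8.428 and 9.338 CPM with empty vector. The TGFB1 groups did not overlap for Mbp, and replicate 1 of empty vector with vehicle was the lowest library. Mobp, a further myelin gene, was counted 116 times in all. Snap25, which drives fusion of synaptic vesicles, had 3.752, 5.059 and 4.018 CPM in HDAC1 with TGFB1, against 13.47, 14.30 and 13.74 CPM in empty vector with TGFB1. In vehicle Snap25 had 7.581, 8.572 and 13.09 CPM with HDAC1, against 0.972, 9.913 and 11.66 CPM with empty vector. Its empty vector vehicle replicate 1 held 9.01% of the other 2. The vesicle protein Syp and the growth-associated tubulin binder Stmn2 were close to it, at 9.06% and 9.14%, on 18 and 5 counts in that library.

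Nrgn, the neuronal calmodulin binder whose start region is shown above, had 6.290, 6.032 and 6.491 CPM in HDAC1 with TGFB1, against 13.11, 15.45 and 13.74 CPM in empty vector with TGFB1. In vehicle Nrgn had 8.744, 8.061 and 13.56 CPM with HDAC1, against 1.811, 15.69 and 13.17 CPM with empty vector. Replicates 1 and 2 of HDAC1 with vehicle lay below replicate 3. The kinase subunit Camk2a, the neurofilament chains Nefl and Nefm, and the astrocyte genes Aldoc and Slc1a2 (an aldolase and a glutamate transporter) stood at 15.06%, 20.89%, 8.504%, 16.25% and 12.42% of the other 2 replicates in empty vector vehicle replicate 1. The synaptic calcium sensor Syt1 stood at 35.27% there, and the secretory granule protein Scg2 at 22.33%. The values of Nefl, Nefm and Scg2 rest on 10, 2 and 5 counts in that library.

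The neuronal calcium sensor Vsnl1 was the least reduced of the 37 genes in empty vector vehicle replicate 1. It had 4.193, 2.880 and 3.444 CPM in HDAC1 with TGFB1, against 6.102, 6.677 and 7.343 CPM in empty vector with TGFB1. In vehicle Vsnl1 had 7.872, 7.039 and 8.571 CPM with HDAC1, against 5.125, 6.467 and 6.726 CPM with empty vector. Its empty vector vehicle replicate 1 stood at 77.69% of the other 2, above all 3 libraries of HDAC1 with TGFB1.

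Counted over the 37 genes, replicate 1 of empty vector with vehicle was the lowest of the 12 for 32 genes, against 9.05% of the 14601 genes tested. It lay below 50% of each of its fellow replicates for 35 genes, all but Fabp3 and Vsnl1, against 4.37% of all genes tested. The 4 lowest libraries were exactly that one and the 3 of HDAC1 with TGFB1 for 35 of the 37 genes, against 2.64% of all genes tested. All 3 libraries of HDAC1 with TGFB1 lay below all 3 of empty vector with TGFB1 for 37 of 37 genes, against 15.6% of all genes tested. Since these genes were picked for this pattern, the counts describe the choice. The median gene held 18.0% of its fellow replicates' mean in empty vector vehicle replicate 1, and in HDAC1 with TGFB1 33.9% of the mean of empty vector with TGFB1. In replicate 1 of HDAC1 with vehicle the median gene held 59.6% of the mean of replicates 2 and 3, 52.0% for heart and 77.6% for brain.

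**Figure D2:**
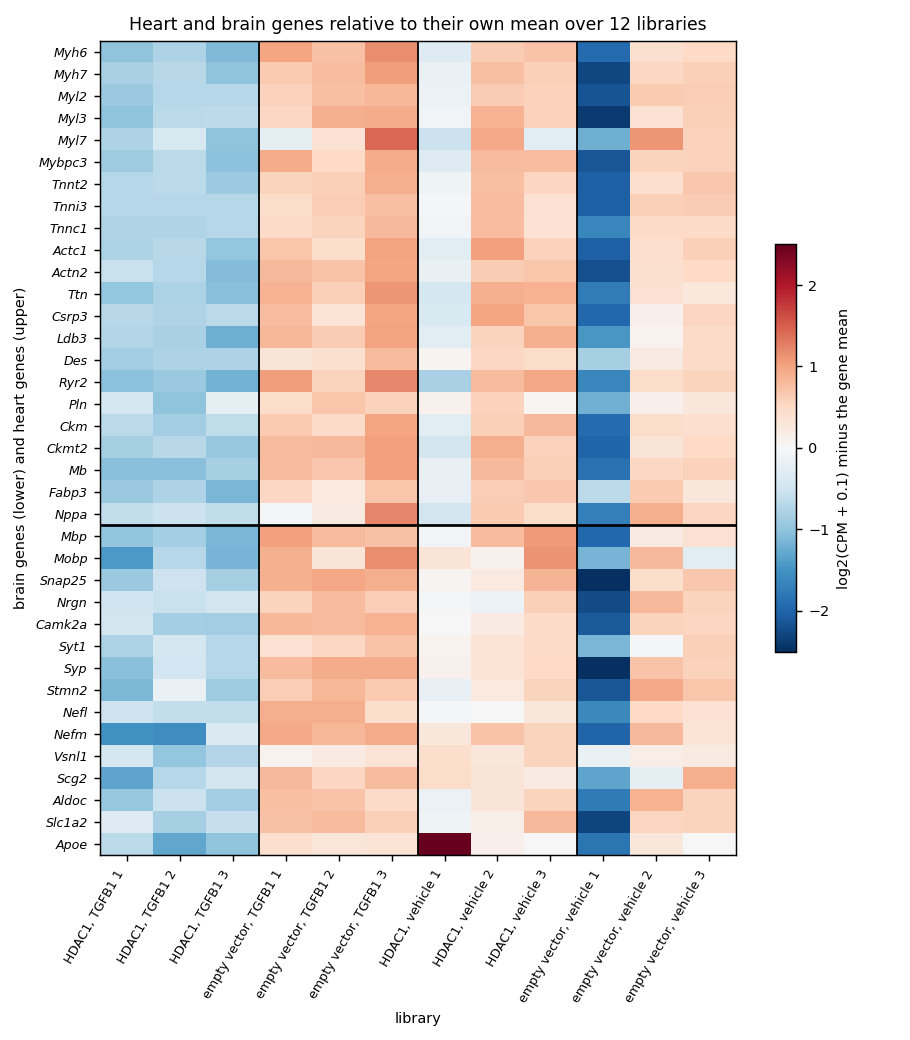
Each row is 1 of the 37 genes and each column 1 of the 12 libraries; colour gives log2(CPM + 0.1) minus the gene's mean over the 12 libraries, and values beyond 2.5 either way are drawn at the end of the scale. The libraries of HDAC1 with TGFB1 and replicate 1 of empty vector with vehicle are blue in nearly every row, and Apoe is dark red in replicate 1 of HDAC1 with vehicle.

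Shares within the heart sum changed less than its size, which changed 7.619-fold over all 12 libraries. Without replicate 1 of empty vector with vehicle, the sum ran only from 159.5 to 597.1 CPM. In those 11 libraries the highest share was 1.17 (Myh7) to 3.34 times (Myl7) the lowest. Myh6 made up 19.2% to 26.2% of the heart counts in the 12 libraries, Tnnt2 12.3% to 15.4%, Myl2 9.92% to 13.4% and Mb 3.68% to 4.79%. In the library with the lowest heart sum, replicate 1 of empty vector with vehicle, Myh6 made up 21.8% of 1774 heart counts (exact 95% interval 19.9% to 23.8%), which lies inside the range of the other 11. The ratio of Myh6 to Myh7 counts ran from 2.76 to 4.11, with the highest value in that same library. The ratio of the ventricular Myl2 to the atrial Myl7 ran from 38.1 to 121, resting on 185 Myl7 counts over all libraries.

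Some shares stood apart from the other libraries, several of them in empty vector vehicle replicate 1. Des (desmin, the muscle intermediate filament) made up 6.37% of the heart counts there (exact 95% interval 5.28% to 7.61%), against 2.26% to 3.62% in the other 11. Fabp3 (a fatty acid carrier of heart) made up 3.66% (2.84% to 4.65%), against 1.16% to 1.74%. Des and Fabp3 are also made outside heart muscle. Vsnl1 made up 31.1% of the 373 brain counts there without Apoe (26.4% to 36.1%), against 6.42% to 13.2% in the others, and Syt1 11.3% against 4.93% to 8.59%. In the other direction, Snap25 made up 5.90% there against 10.9% to 14.6%, and Syp 4.83% against 7.68% to 11.2%. Other shares differed between the remaining 11 libraries beyond their exact 95% intervals. Mbp made up 9.45% (7.47% to 11.8%) of the brain counts in replicate 3 of HDAC1 with TGFB1 and 17.7% (15.9% to 19.5%) in replicate 2 of HDAC1 with vehicle. Ryr2 made up 1.00% (0.814% to 1.22%) of the heart counts in replicate 1 of HDAC1 with vehicle and 1.97% (1.73% to 2.24%) in replicate 3, and Nppa 0.73% (0.579% to 0.908%) in replicate 1 of empty vector with TGFB1 and 1.69% (1.41% to 2.00%) in replicate 2 of empty vector with vehicle.

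**Figure D3:**
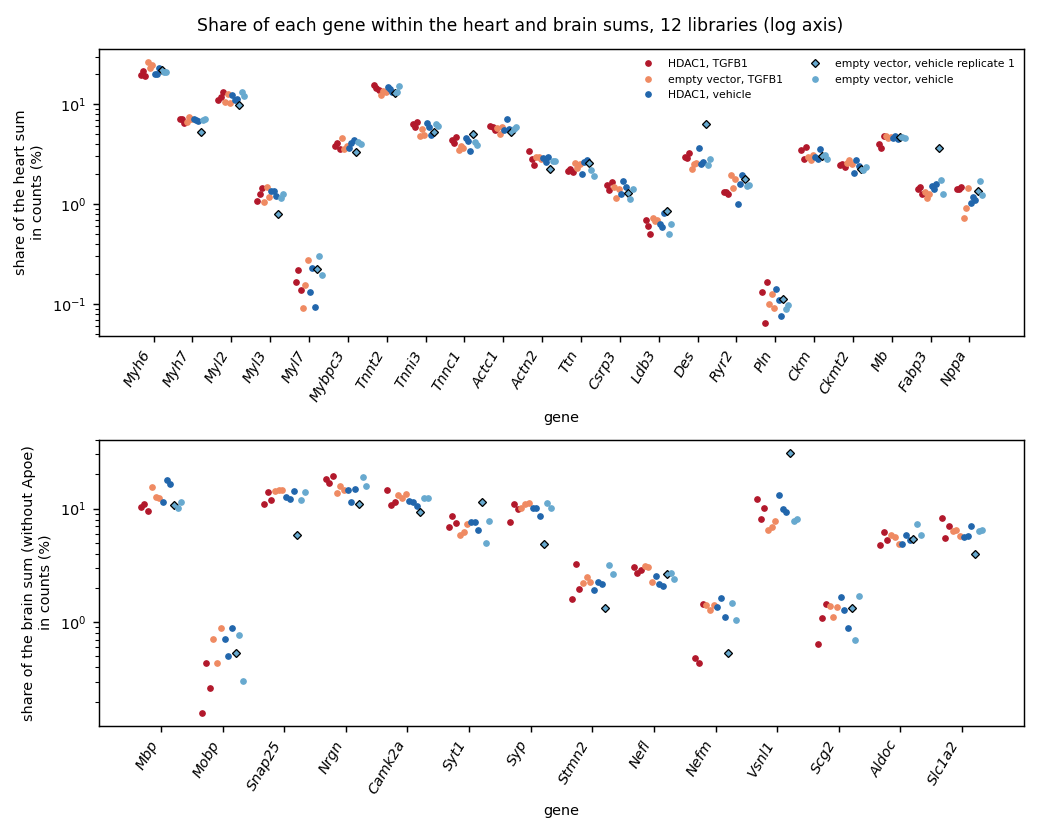
Share of each gene in the counts of the heart sum (top) and of the brain sum without Apoe (bottom), in percent on a log axis; each point is 1 library, and the diamond is replicate 1 of empty vector with vehicle. Leaving out the diamond, the highest share is 1.17 (Myh7) to 3.34 times (Myl7) the lowest for heart genes. For brain genes it is 1.35 (Snap25) to 5.58 times (Mobp) the lowest. The diamonds of Des (6.37%), Fabp3 (3.66%) and Vsnl1 (31.1%) lie above the others.

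Apoe, a lipid carrier made by astrocytes and in large amounts by liver, followed the other brain genes in 11 libraries only. It had 5.793, 3.736 and 4.592 CPM in HDAC1 with TGFB1, against 12.57, 11.47 and 11.81 CPM in empty vector with TGFB1. In vehicle Apoe had 94.99, 10.18 and 9.195 CPM with HDAC1, against 2.562, 11.34 and 9.409 CPM with empty vector. Replicate 1 of HDAC1 with vehicle was far above every other. Liver genes were high in the same library: the 9 genes of a 15-gene liver list that had a row summed to 1.79 to 2.56 CPM in HDAC1 with TGFB1, 1.45 to 2.10 CPM in empty vector with TGFB1, 2.73 to 71.14 CPM in HDAC1 with vehicle and 2.97 to 4.15 CPM in empty vector with vehicle. Alb, the serum albumin of liver, had 1038 counts in that library and 0 to 2 in each of the other 11. Keratins of skin were high in it as well: Krt5 had 321 counts there and 0 to 4 in each of the other 11, and Krt14 had 42.19 CPM there and 2.924 to 17.27 CPM in the others. The 3 keratinocyte genes with a row summed to 190.4 to 212.5 CPM in HDAC1 with TGFB1, 194.7 to 247.4 CPM in empty vector with TGFB1, 196.5 to 233.4 CPM in HDAC1 with vehicle and 203.2 to 213.1 CPM in empty vector with vehicle, so the whole list did not set that library apart. The part of these liver and skin counts in the Apoe level was not tested.

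Genes that were not in the set but mark the same tissues were counted from lists chosen with earlier results of these data known. Among 25 other heart genes tested, 14 lay below 50% of both fellow replicates in empty vector vehicle replicate 1, and among 27 other neuron genes 19 did, against 4.37% of all genes tested. The 2 cerebellum genes and the 1 blood gene with a row, Hbb (beta globin), did too. Hbb had 1.821, 0.856 and 0.795 CPM in HDAC1 with TGFB1, against 2.351, 2.226 and 2.530 CPM in empty vector with TGFB1. In vehicle Hbb had 1.849, 2.281 and 2.026 CPM with HDAC1, against 0.353, 3.234 and 2.361 CPM with empty vector. Of the genes with a row in the further brain lists, 4 of 7 oligodendrocyte, 3 of 9 astrocyte and 4 of 10 forebrain genes were low there. The 4 include Gjb1, with 0, 1 and 2 counts in the empty vector vehicle libraries. Of the 7 oligodendrocyte genes, 6 were among the genes tested. Outside heart and brain, the 1 adipocyte gene (Fabp4) and 2 of 7 endothelial genes were low. So were 1 of 6 skeletal muscle genes and 1 of 9 liver genes. The liver gene was Rbp4, with 0, 4 and 1 counts in the empty vector vehicle libraries, and 3 of the 9 were tested. Of fibroblast genes 0 of 11 were low, of smooth muscle 0 of 7, of kidney tubule 0 of 3 and of macrophage 0 of 3. Lung epithelium and pancreas had 0 of 2 each, and keratinocytes 0 of 3.

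With HDAC1 and TGFB1 against empty vector with TGFB1, 10 of the 25 other heart genes were called lower and 0 higher by edgeR's quasi-likelihood test, with a median log2 fold change of -0.92. Of the 27 other neuron genes, 7 were called lower and 0 higher, with a median of -1.45. Of the 11 fibroblast markers, 3 were called lower and 0 higher, with a median of -0.36. The background was 6.53% of genes called, 4.36% called lower, and a median over all genes of -0.0015. In vehicle the lists did not move one way: HDAC1 against empty vector gave 3 other heart genes called higher and 2 lower, and 0 other neuron genes higher and 1 lower, where 14% of all genes were called.

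By the root mean square of the difference in log2(CPM + 0.1), each gene centred on its own mean over 12 libraries, the genes closest to the average profile of the 37 included Pygm, Agap2, Eef1a2, Camkv, Coro6, Gap43, Ptn and AC128290.1. The distance was 0.12 for Pygm, the glycogen phosphorylase of muscle, and 0.181 for Gap43, a growth cone protein of neurons. The 37 genes themselves lay at 0.122 to 1.04 with a median of 0.244, and 11544 other genes had a median of 0.843. Pygm had 2.98, 3.15 and 2.69 CPM in HDAC1 with TGFB1, against 8.86, 9.24 and 10.7 CPM in empty vector with TGFB1. In vehicle Pygm had 4.91, 9.56 and 9.47 CPM with HDAC1, against 1.46, 7.95 and 8.41 CPM with empty vector. Muscle and brain genes thus both stand among the closest.

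The fold changes of the 37 genes follow from these levels. For HDAC1 against empty vector with TGFB1 the median log2 fold change was -1.57 over the heart genes and -1.46 over the brain genes, and all 37 were negative, from -2.56 for Mobp to -0.95 for Vsnl1. Of the 37, 9 were called lower at an adjusted p under 0.05 in edgeR's test and 0 higher, where 4.36% of all genes were called lower. The 9 were Ldb3, Des and Fabp3 of heart and Mobp, Syt1, Nefl, Nefm, Vsnl1 and Scg2 of brain. The other 28 had the same sign. Myh6, for example, had -1.92 with an SE of 0.557 and was not called, though Mobp, with an SE of 0.671, was. Without empty vector vehicle replicate 1, which is in neither group of this comparison but shares the estimate of the spread, 33 of the 37 were called lower, where 5.23% of all genes were. In a fit to the 2 groups alone, 36 were tested and 34 were called lower, where 5.65% of all genes were.

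For TGFB1 against vehicle in HDAC1 cells the medians were -1.26 for heart and -1.06 for brain, and 10 of the 37 were called lower, where 24.2% of all genes were called lower. Without empty vector vehicle replicate 1, 34 were called lower, where 24.6% of all genes were. For HDAC1 against empty vector in vehicle the medians were 0.39 and 0.27 with 0 of 37 called by edgeR or by DESeq2, where 14% of all genes were called by edgeR. Without empty vector vehicle replicate 1 those medians were -0.05 and -0.16, with 0 of 37 called by edgeR, where 8.31% of all genes were. Myh6 had a log2 fold change of 0.40 (SE 0.530) with all 12 libraries and -0.06 without that one. For TGFB1 against vehicle with empty vector the medians were 0.75 and 0.68, and 0.27 and 0.22 without it. There 1 of the 37, Ldb3, was called higher (0.94), where 25.9% of all genes were. Without that library 0 were, by edgeR, where 22.7% of all genes were. The 4 comparisons share groups with each other, so they are not independent.

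**Figure D4:**
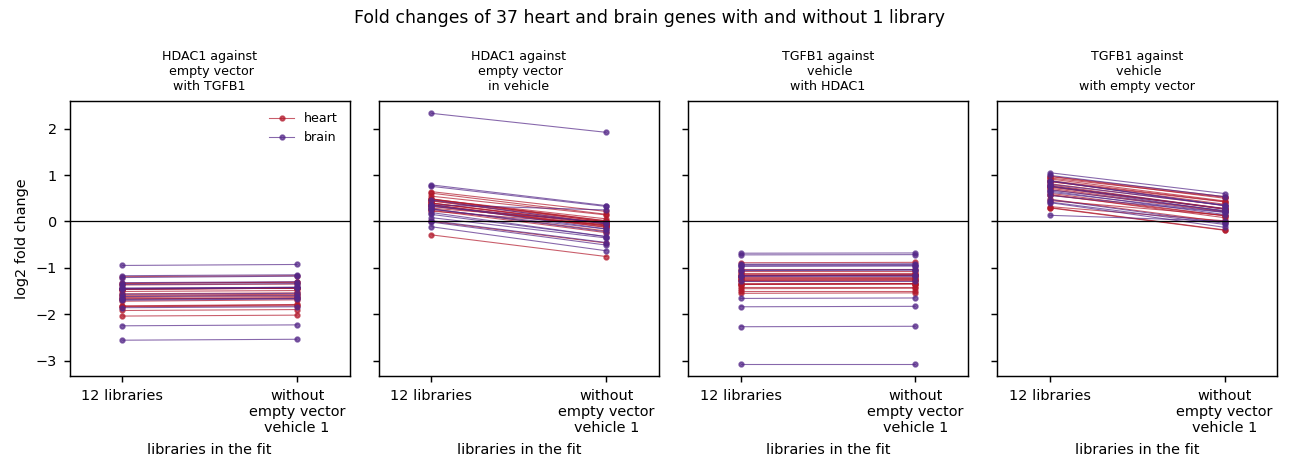
Log2 fold change of the 37 genes in 4 comparisons, with 12 libraries and without replicate 1 of empty vector with vehicle; each line is 1 gene. Lines are flat where that library is in neither group and drop by about the same amount for most genes where it is.

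The difference between the HDAC1 effects with TGFB1 and in vehicle had a median of -2.04 for heart and -1.72 for brain, and -1.54 and -1.22 without empty vector vehicle replicate 1. Of the 37 genes 1, Vsnl1, was called with 12 libraries, where 0.479% of all genes were, and 12 without that library, where 0.617% of all genes were. Without it and without replicate 1 of HDAC1 with vehicle, 28 were called, where 0.864% of all genes were.

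The same libraries bear on genes outside the set of 37, some of which mark heart or brain too. Of the 14564 other genes tested, 603 (4.14%) lay below 50% of both fellow replicates in empty vector vehicle replicate 1. These 603 include 14 of the other heart genes and 19 of the other neuron genes counted above. Of the 190 other genes called at least 2-fold lower with HDAC1 and TGFB1 against empty vector with TGFB1, 131 (68.95%) were among those 603. Of the 317 other genes called higher in that comparison, 2 were. Empty vector vehicle replicate 1 is in neither group of that comparison, so the low level there and the fold change come from different libraries. In the comparisons that do contain that library, 11 of 78 genes at least 2-fold higher with HDAC1 in vehicle and 89 of 608 at least 2-fold higher with TGFB1 in empty vector cells were among the 603.

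**Figure D5:**
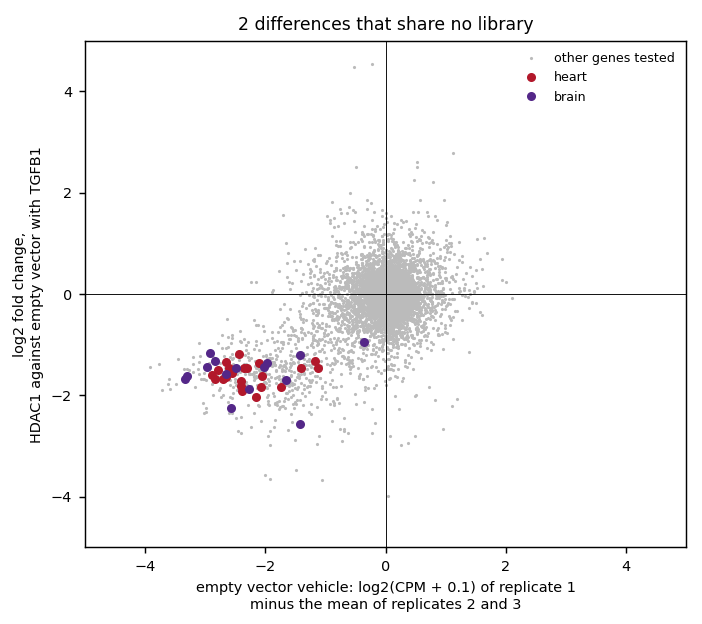
Each point is 1 of 14601 genes; the x axis is log2(CPM + 0.1) of replicate 1 of empty vector with vehicle minus the mean of replicates 2 and 3, and the y axis is the log2 fold change of HDAC1 against empty vector with TGFB1. The 37 genes lie at -3.34 to -0.36 on x and at -2.56 to -0.95 on y, in a group of points low on both axes; 1 gene lies outside the axes.

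The fit was repeated with the log2 sum of heart and brain levels as a covariate. Calls for HDAC1 against empty vector with TGFB1 then numbered 87 (0.596% of genes), against 954 without it, and 10 of the 190 genes above were called. In HDAC1 with TGFB1 all 3 libraries have low sums and in empty vector with TGFB1 all 3 have high ones, so the sum and the group cannot be told apart there, and the covariate removes what they share. In vehicle, where the sums of the groups overlap, 1401 genes were called with the covariate and 2038 without it.

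Among the other genes named by rule, those given here changed most with HDAC1 and TGFB1 and were not low in empty vector vehicle replicate 1, other than Hdac1l, described last. Mmp13 and Mmp3, collagen- and matrix-degrading proteases, were higher by 1.54 (SE 0.154) and 1.5 (SE 0.175) on the log2 scale, at adjusted p = 5.31e-05 and 0.00138 in edgeR. Mmp13 stood at 96.3% and Mmp3 at 99.7% of the other replicates in empty vector vehicle replicate 1, and with the covariate the changes were 1.51 and 1.43. Mybphl, a myosin-binding protein like gene, averaged 0.179 ± 0.0147 CPM with HDAC1 and TGFB1, against 1.46 ± 0.319 CPM with empty vector and TGFB1 (SD, n = 3 each). Its log2 fold change of -2.97 (SE 0.345, adjusted p = 5.31e-05 in edgeR) thus rests on low levels. Mybphl stood at 119% in empty vector vehicle replicate 1 and had -3.07 with the covariate. Enpp2, which makes lysophosphatidic acid, had -1.49 (SE 0.328, adjusted p = 0.0138 in edgeR), stood at 102% there and had -1.45 with the covariate, where it was no longer called.

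The gene listed as Hdac1l had the largest rise of the genes named by rule in both HDAC1 comparisons. It averaged 1090 ± 251 CPM with HDAC1 and TGFB1, against 9.30 ± 1.64 CPM with empty vector and TGFB1 (SD, n = 3 each). In vehicle it averaged 1170 ± 279 CPM with HDAC1 (SD, n = 3), against 0.53, 15.1 and 9.23 CPM in the 3 empty vector libraries, which are 12, 285 and 258 counts. Empty vector vehicle replicate 1, lowest in heart and brain transcripts, thus held 4.36% of its fellow replicates' level of Hdac1l. Whether these counts come from the plasmid was not tested.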

How the data were processed

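Poly(A) RNA of rat NRK-49F cells was measured in 12 libraries, 4 groups of 3 by the sample titles. The authors deposited raw counts per gene and a normalized signal. Per the submitters' processing notes, the tools were Trim Galore 0.6.7, featureCounts of Subread 2.0.1, and DESeq2 1.44. The notes name mm10, but gene identifiers are rat; aligner and rat build are not given in the sources used here. Each library's normalized values equal its raw counts over 1 constant. The members and lists were chosen with earlier results of these data known.

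From the deposited counts, genes were kept with filterByExpr of edgeR 4.0.16 (R 4.3.3), which left 14601 of 43360, scaled with TMM, and fitted with the robust quasi-likelihood model with 1 mean per group (8 residual degrees of freedom). Two-sided tests were adjusted over all genes by Benjamini-Hochberg, with calls at 0.05. Each SE given is the absolute log2 fold change divided by the square root of the test's F value. Fits were tested on simulated data with known changes. Other genes were named by rule: per comparison, the 3 called genes that rose most and the 3 that fell most, if named in the files, averaging log2 CPM 2 or more, with groups that do not overlap; those of HDAC1 with TGFB1 are given, and some genes the rules name are not reported here. DESeq2 1.42.0 was an alternative, beside others in the closing section. Shares within a sum use raw counts with exact Clopper-Pearson intervals.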

Additional observations from a re-analysis of the deposited data

Results flagged for a closer look

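In edgeR's fit to all 12 libraries, Vsnl1 was the 1 gene of the 37 whose difference between the HDAC1 effects with TGFB1 and in vehicle passed an adjusted p under 0.05 over all genes tested, at a log2 value of -1.31. DESeq2 called 7 of the 37, and 270 of all 14601 genes. With no filter on low counts, edgeR called 8 of the 37, and 479 of 30321 genes. Vsnl1 was chosen with these libraries in view, so the value is a description. It lay between -1.45 and -1.18 when any 1 library was left out. With the heart and brain sum as a covariate, a sum that contains Vsnl1 itself, it was -0.98 and not called. Leaving out replicate 3 of HDAC1 with TGFB1, or replicate 3 of HDAC1 with vehicle, also ended the call (-1.31 and -1.23).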

How the results depend on the processing

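Medians over the heart or brain genes changed sign in 3 kinds of alternative. With the covariate 8 medians did, 6 of them given below and those for HDAC1 in vehicle at -0.11 (heart) and -0.10 (brain). For HDAC1 in vehicle they did so without empty vector vehicle replicate 1 (-0.05 and -0.16) and, for brain, without replicate 1 of both vehicle groups (-0.087). With the heart and brain sum as a covariate, calls were 87 for HDAC1 against empty vector with TGFB1 and 0 for the difference of the HDAC1 effects, for which 726 genes had an unadjusted p under 0.05. Members called were then 0, 6 and 0 (HDAC1 with TGFB1, TGFB1 with HDAC1, the difference). Of the 6, 4 were higher and 2 lower, against 10 lower without the covariate. Over all 14601 genes, 5505 were called for TGFB1 with HDAC1 in that fit. The covariate is the sum of these same 37 genes, so their own calls and medians with it are largely set by its make-up. Median log2 fold changes with it were 0.24 (heart) and -0.14 (brain) for HDAC1 with TGFB1, 0.26 and 0.32 for TGFB1 with HDAC1, -0.041 (heart) for TGFB1 with empty vector, and 0.28 and 0.14 for the difference. DESeq2 called 15, 16 and 7 of the 37 members for HDAC1 with TGFB1, TGFB1 with HDAC1 and the difference. Over all 14601 genes it called 1341, 7125 and 270. With no filter, 8 members were called for the difference and 3 for TGFB1 with empty vector. Over all 30321 genes there were 479 and 7284 calls. In fits to only the groups compared, 34 of 36 members tested were called for HDAC1 with TGFB1. For TGFB1 with HDAC1 32 of 34 were, and for TGFB1 with empty vector 0 of 37. Over all genes tested, calls were 1058 of 13654, 7657 of 14014 and 6712 of 13928. Without replicate 1 of both vehicle groups, a fit added after seeing the data, 35, 2, 35, 6 and 28 of 37 members were called. These counts are for HDAC1 with TGFB1, HDAC1 in vehicle, TGFB1 with HDAC1, TGFB1 with empty vector and the difference. Over all 14817 genes, calls in the same order were 1294, 633, 6787, 6704 and 128.

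Leaving out 1 library at a time, 14860 to 14923 genes were tested. Calls ran from 237 to 1251 (HDAC1 with TGFB1), 1144 to 2679 (HDAC1 in vehicle) and 3 to 257 (the difference). For TGFB1 with HDAC1 they ran from 6210 to 7657, and for TGFB1 with empty vector from 6633 to 7511. Members called ran from 1 to 33, 0 to 1, 6 to 34, 0 to 5 and 0 to 12 in the 5 comparisons. Without the 3 members of the highest mean, the group sums were 89.3, 267 and 217 CPM for heart (HDAC1 with TGFB1, empty vector with TGFB1, HDAC1 with vehicle) and 24.1, 68.0 and 54.0 CPM for brain. Without Apoe, added after seeing the data, the brain sums with TGFB1 were 34.6 CPM with HDAC1 and 95.9 CPM with empty vector. With Apoe they were 39.35 and 107.9 CPM, and with Apoe but without TMM scaling 38.2 and 105 CPM.

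No pairing by replicate number was seen: same-numbered libraries of different groups correlated at -0.0875 to 0.118, and differently numbered ones at -0.115 to 0.0921. These correlations of deviations from group means cannot exclude a pairing. The fit with the replicate block gave 784, 1790, 6915, 7197 and 98 calls in the 5 comparisons, and 3 members for TGFB1 with empty vector and 5 for the difference. Genes counted under 200 times in all, such as Pln, Mobp and Myl7, limit what the shares can show.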
